A study of Mus musculus with 6 samples.

Results

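The 10 genes described here encode sensors of nucleic acids in the cytosol, their adaptors, and proteins of the interferon-inducible p200 family. They were chosen by name, with earlier results of these data known: Ifih1, Ddx58, Dhx58, Mavs, Tmem173, Aim2, Ifi203, Ifi204, Ifi205 and Mndal. All 10 were found among the 14005 gene identifiers of the deposited table, and all 10 passed the filter on low values. RNA of primary mouse bone marrow-derived macrophages was sequenced after polyA selection in 3 libraries labelled Txn1 KO and 3 wild-type libraries. The Txn1 KO libraries carry the allele Txn1tm1.1Ees/J together with B6.129P2-Lyz2tm1(cre)lfo/J, a Cre recombinase inserted into the lysozyme gene Lyz2, which is active in myeloid cells. The wild-type libraries carry neither. Both groups are given as C57BL/6J background, as primary cells and as pools of male and female animals, with no age or treatment stated. Libraries carrying the Cre but not the Txn1 allele were not analysed here, so the Cre insertion and the Txn1 allele cannot be told apart.

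Macrophages detect viral or misplaced nucleic acids through families of sensors. Ifih1 (MDA5) and Ddx58 (RIG-I) bind viral RNA and signal through the mitochondrial adaptor MAVS. Dhx58 (LGP2), the other RIG-I-like receptor, lacks the signalling domains and modulates them. DNA in the cytosol is detected by cGAS, whose product binds STING (Tmem173), and by AIM2, which joins DNA to the inflammasome adaptor ASC. Aim2, Ifi203, Ifi204, Ifi205 and Mndal belong to the p200 family, whose proteins carry DNA-binding HIN domains, pyrin domains or both. Many of these genes are themselves induced by type I interferon.

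The p200 genes lie side by side on mouse chromosome 1, and several share a stretch of promoter sequence, which is shown here to let their promoters be compared. Of the genes that held it, Ifi203, Ifi205, Mndal, Ifi206, Ifi207, Ifi213, Pydc3 and Mnda were called lower. Ifi214 held it and was not called, at only 13.8 normalized counts in Txn1 KO libraries and 16.96 in wild type. Of the matched genes without it, Ifih1, Ddx58 and Ifi209 were called lower, and Mavs and Aim2 were not called. A link between the stretch and the calls was not tested. The core letters of the interferon-stimulated response element (GAAA, any 2 bases, GAAA) were searched on both strands in the 250 bases before each start site, in RefSeq promoters of build GRCm38.p6. Promoters were matched for 7 of the 10 members: Ifih1, Ddx58, Mavs, Aim2, Ifi203, Ifi205 and Mndal. The motif was found in 3 of these 7 (Ifi203, Ifi205 and Mndal) and in 6 of 7 matched promoters of other p200 genes (Ifi206, Ifi207, Ifi213, Ifi214, and the genes listed as Pydc3 and Mnda, which RefSeq calls Ifi208 and Ifi211). Counted the same way, by gene with any start site, 3.46% of the 27025 genes of that table held it, and 2.98% of its 32851 promoters did. Several of the stretches printed below are near copies of each other, so the p200 genes are not independent cases in these counts. Each stretch is printed 5′ to 3′ along the gene, with the motif in capitals and 10 bases on each side.
Ifi203 (chr1:173942508-173942537, minus strand): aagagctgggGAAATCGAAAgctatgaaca
Mndal, upstream start site (chr1:173880204-173880233, minus strand): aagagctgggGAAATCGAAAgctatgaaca
Mndal, downstream start site (chr1:173879993-173880022, minus strand): ttttgagtcaTTTCTCTTTCtactcaaaac
Ifi205 (chr1:174031870-174031899, minus strand): ccaggccaggGAAATTGAAAgctatgaaca
Ifi206 (chr1:173491339-173491368, minus strand): tgtctctgagGAAATCGAAAgctatgaacc
Ifi207 (chr1:173741831-173741860, minus strand): cctagccaggGAAATCGAAAattaagaaca
Ifi213 (chr1:173599326-173599355, minus strand): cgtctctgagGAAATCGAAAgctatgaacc
Ifi214 (chr1:173536017-173536046, minus strand): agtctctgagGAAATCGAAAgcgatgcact
Pydc3 (chr1:173673597-173673626, plus strand): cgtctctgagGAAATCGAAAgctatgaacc
Mnda (chr1:173913064-173913093, minus strand): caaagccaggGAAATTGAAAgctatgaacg

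The stretch of Ifi203 and that of the upstream Mndal start site were letter for letter the same, as were those of Ifi213 and Pydc3. The exact form GAAATCGAAA stood in 7 of these genes and in 13 of the 32851 promoters in all. It was singled out after the sequences had been seen. The motif began 35 bases before the downstream of the 2 start sites of Ifi203, 134 bases before the start site of Ifi205, and 36 and 54 bases before the upstream and downstream start sites of Mndal. In the downstream Mndal promoter it ran on the opposite strand. The promoters of Ifih1, Ddx58, Mavs and Aim2 did not hold these letters in this window. The gamma-activated site core TTCNNNGAA, a palindrome, was found in the promoters of 0 of the 7 matched members, against 8.13% of all genes of the table. These start sites are those of RefSeq, while counts and positions here follow other annotation. The ends of the promoter sequences of Ifi203, Mndal, Ifi206, Ifi207 and Ifi209 were not found in their GENCODE M21 transcripts. In GENCODE M21, Mndal begins at 173942491 on the minus strand, beside the Ifi203 stretch and not beside the Mndal stretches. A match is a description of letters and not a measured binding site.

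Libraries held 22508616 to 31127228 reads in the listed genes for Txn1 KO and 29716640 to 38726953 for wild type. Txn1, which encodes thioredoxin-1, had 12349 ± 367 normalized counts in Txn1 KO libraries and 12580 ± 532 in wild type (SD, n = 3 each). Its log2 difference was -0.03 (limma adjusted p = 0.686), and the deleted part of the gene is not named, so whole-gene reads do not check the deletion. Lyz2, which the Cre insertion interrupts, had 3118 ± 1281 normalized counts in Txn1 KO libraries and 364408 ± 3550 in wild type. Of 8 identifiers for the 7 genes on the macrophage marker list 3 were higher and 3 lower, against 11.5% and 9.97% of all tested genes. Fcgr1 (log2 -0.71), Cd14 (-0.47) and Cd68 (-0.12) fell. Mertk (0.64) and both identifiers of Itgam (0.48 and 1.68) rose. The second Itgam identifier overlaps the first in position on the same strand, so the pair does not count as separate genes. It was low, at 29.5 normalized counts in Txn1 KO libraries and 8.62 in wild type. Csf1r and Adgre1 were not called and were high in both groups. Their means were 52094 and 16942 normalized counts in Txn1 KO libraries and 50502 and 17728 in wild type. Txn1 KO replicate 3 and wild-type replicate 1 stood apart by liver transcripts. Alb, the albumin gene, reached 580.0 normalized counts in the first and 642.9 in the second, and no other library exceeded 0.838.

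Of the 10 members, 7 were lower in Txn1 KO macrophages and 0 were higher. The 7 were the RIG-I-like receptors Ifih1, Ddx58 and Dhx58 and the p200 genes Ifi203, Ifi204, Ifi205 and Mndal. The adaptors Mavs and Tmem173 and the DNA sensor Aim2 did not pass the test. Over all 13977 genes tested, 9.97% were called lower and 11.5% higher (limma on log2(normalized count + 1), Benjamini-Hochberg adjusted p under 0.05). Since the members were chosen with earlier results of these data known, setting them against these shares is a description only. For each of the 7, every Txn1 KO library lay below every wild-type library, which was so for 17.6% of all tested genes. Without limma's trended prior 3 members were called lower (Ifi203, Ifi204 and Mndal), and 1525 genes in all were called in place of 3001. The limma adjusted p was then 0.0691 for Ifih1, 0.153 for Ddx58, 0.103 for Dhx58 and 0.0975 for Ifi205. The median log2 change was -0.33 over the members and -0.00 over all tested genes. Each normalized count is the number of reads assigned to a gene by the authors, scaled by a size factor of its library. In bulk RNA, fewer cells of a type and less RNA per cell cannot be told apart.

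**Figure D1:**
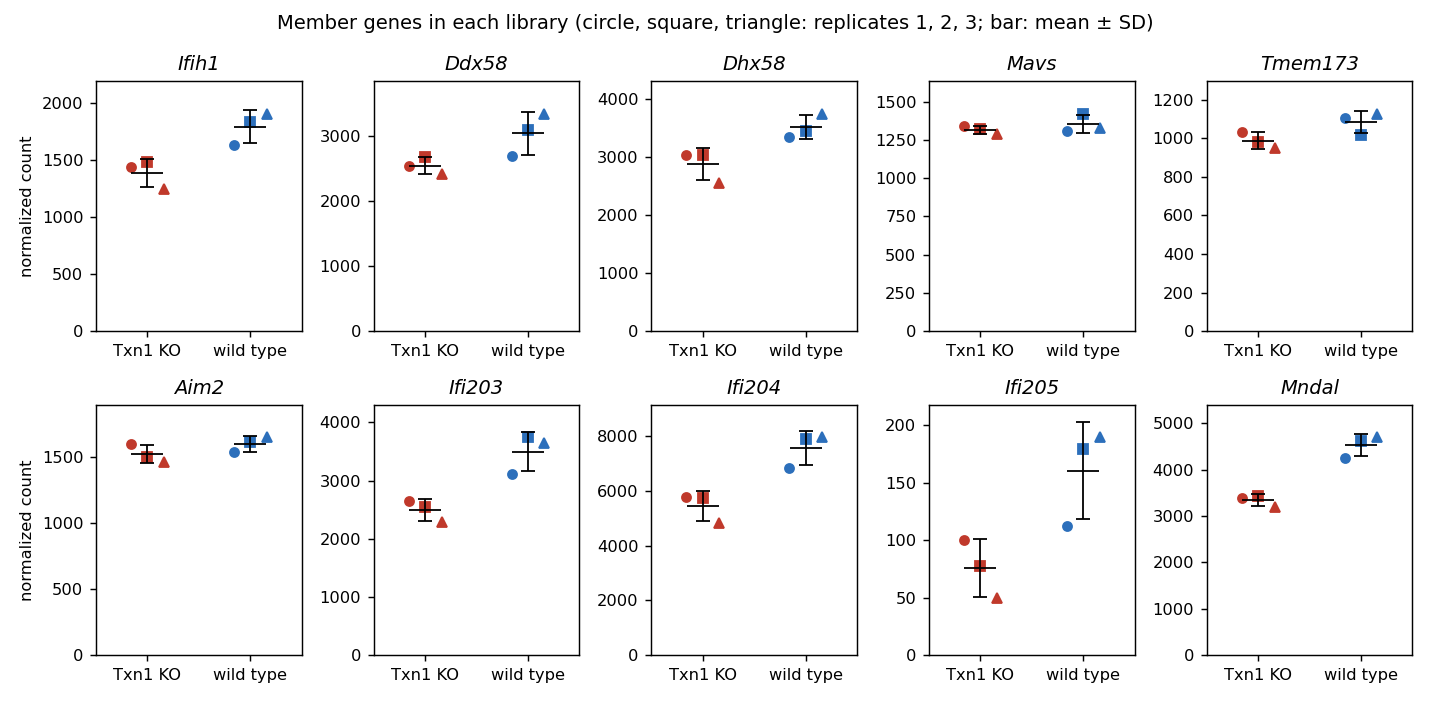
Normalized count (vertical axes, from 0) of each member in the Txn1 KO libraries (left, red) and the wild-type libraries (right, blue), with replicates as points and the mean ± SD as black bars. The groups are separate for the 7 called members and overlap for Mavs, Tmem173 and Aim2.

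The RIG-I-like receptors fell by similar amounts. Ifih1, the sensor of long viral RNA (chromosome 2, 62595798 to 62646255, minus strand, GRCm38), had 1441, 1481 and 1245 normalized counts in Txn1 KO libraries, against 1633, 1839 and 1909 in wild type. The groups did not overlap, and the lowest wild-type library was replicate 1. Ifih1 fell by 0.37 on the log2 scale (SE 0.067, limma adjusted p = 0.000573), to 77.4% of the wild-type mean.

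Ddx58, the sensor of viral RNA ends (chromosome 4, 40203773 to 40239828, minus strand), had 2539, 2676 and 2416 normalized counts in Txn1 KO libraries, against 2690, 3084 and 3343 in wild type. Its highest Txn1 KO library lay just under its lowest wild-type library. Ddx58 fell by 0.25 on the log2 scale (SE 0.062, limma adjusted p = 0.00715), and the call was lost without wild-type replicate 3 (log2 -0.18, limma adjusted p = 0.0654). Dhx58, the regulatory member (chromosome 11, 100694884 to 100704271, minus strand), had 3034, 3030 and 2550 normalized counts in Txn1 KO libraries, against 3344, 3446 and 3742 in wild type. All 3 of its Txn1 KO libraries were below the wild-type range. It fell by 0.29 on the log2 scale (SE 0.060, limma adjusted p = 0.00166). Its antisense neighbour Dhx58os overlaps 4.31% of its exon bases, and whether reads were counted by strand was not stated, so reads of the pair cannot be told apart there. Dhx58os was low, at 26.0 ± 9.01 normalized counts in Txn1 KO libraries and 22.9 ± 3.34 in wild type (SD, n = 3 each).

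Neither adaptor passed the test. Mavs, the mitochondrial adaptor of the RNA sensors (chromosome 2, 131234063 to 131248025, plus strand), had 1341, 1319 and 1289 normalized counts in Txn1 KO libraries, against 1311, 1422 and 1330 in wild type. The groups overlapped. The log2 difference was -0.04 (limma adjusted p = 0.636), with a 95% interval of 90.5% to 105% of wild type. Tmem173, which encodes STING (chromosome 18, 35733679 to 35740554, minus strand), had 1034, 978.8 and 947.4 normalized counts in Txn1 KO libraries, against 1106, 1020 and 1128 in wild type. Only Txn1 KO replicate 1 and wild-type replicate 2 crossed. Its log2 difference was -0.14 (unadjusted p = 0.0301, limma adjusted p = 0.108), with an interval of 83.7% to 99.0% of wild type. Leaving out both libraries that held albumin RNA gave -0.09 for Tmem173 (limma adjusted p = 0.398).

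Aim2, the DNA sensor that forms an inflammasome (chromosome 1, 173350879 to 173466040, plus strand), had 1603, 1502 and 1468 normalized counts in Txn1 KO libraries, against 1538, 1616 and 1652 in wild type. Txn1 KO replicate 1 was within the wild-type range. The log2 difference was -0.07 (limma adjusted p = 0.350), with a 95% interval of 88.5% to 102% of wild type. Aim2 stands first in the p200 cluster, and the other 4 p200 members were all called lower.

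Ifi204, a p200 gene whose product carries a pyrin and HIN domains (chromosome 1, 173747293 to 173766943, minus strand), was the most abundant member. It had 5800, 5741 and 4835 normalized counts in Txn1 KO libraries, against 6854, 7902 and 7965 in wild type. The groups were separate, and it fell by 0.47 on the log2 scale (SE 0.063, limma adjusted p = 2.93e-05). Ifi203, a further p200 gene (chromosome 1, 173920407 to 173942672, minus strand), had 2652, 2551 and 2284 normalized counts in Txn1 KO libraries, against 3111, 3743 and 3637 in wild type. Again no libraries crossed. It fell by 0.48 on the log2 scale (SE 0.063, limma adjusted p = 2.41e-05).

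Mndal, the p200 gene named for its likeness to MNDA (chromosome 1, 173849126 to 173942491, minus strand), had 3395, 3432 and 3187 normalized counts in Txn1 KO libraries, against 4251, 4617 and 4695 in wild type. The gap between the groups was wider than the range within either. It fell by 0.44 on the log2 scale (SE 0.044) and had the smallest adjusted p of the members (limma, 1.29e-06). Ifi205, the least abundant member (chromosome 1, 174011998 to 174031810, minus strand), had 99.7, 77.5 and 49.8 normalized counts in Txn1 KO libraries, against 112.1, 179.5 and 189.5 in wild type. Its replicates were the most spread of the members in relative terms, with wild-type replicate 1 close to the Txn1 KO range. It fell by 1.09 on the log2 scale (SE 0.23, limma adjusted p = 0.00221), to 47.2% of the wild-type mean, from 37 to 231 reads per library.

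**Figure D2:**
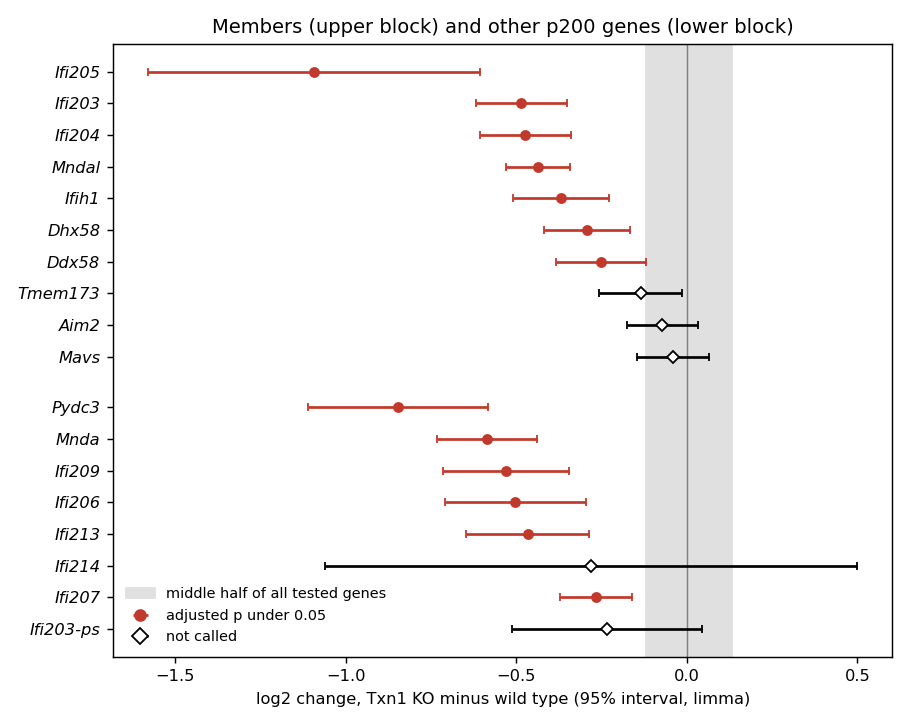
Log2 change (horizontal axis, Txn1 KO minus wild type, on log2(normalized count + 1)) with 95% limma intervals for the 10 members (upper block) and the 8 other p200 genes (lower block). Red points passed an adjusted p of 0.05, open points did not, and the grey band runs from -0.12 to 0.13, the lower to the upper quartile of all 13977 tested genes. Ifi205 is the farthest left at -1.09, and Mavs, Aim2 and Tmem173 lie nearest to 0.

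Close copies limit what the p200 values can say of single genes. Of the distinct 50-base words in the annotated transcripts (GENCODE M21), 12.4% of those of Ifi203, 20.02% of Ifi204, 18.6% of Ifi205 and 19.6% of Mndal also occur in transcripts of another gene. For Ifi205 the partner was mostly the gene listed as Mnda, which shared 18.5% of the words of Ifi205 and averaged 2215 normalized counts in Txn1 KO libraries and 3332 in wild type. Of the words of Mnda, 44.7% occur in Ifi205, which averaged only 75.7 normalized counts in Txn1 KO libraries and 160.4 in wild type. How reads that fit several genes were counted was not stated, so the values of these 4 p200 members are uncertain. The shares of words do not bound that uncertainty, since they leave out how abundant the partner is. The share was 2.90% for Dhx58, all of it with Dhx58os, 0.742% for Aim2, 0.393% for Ddx58 and 0 for Ifih1, Mavs and Tmem173. Mndal and Ifi203 also overlap on the same strand, by 37 exon bases.

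Levels can be compared between genes only per length, here as normalized counts per kb of merged exons. In wild type, Ifi204 was highest (2127 ± 175 per kb), followed by Mndal (1246 ± 65.3) and Dhx58 (1073 ± 63.2), and no libraries crossed between these neighbours. Ifi203, Aim2, Ddx58, Mavs and Tmem173 followed at 521.5, 457.6, 431.1, 404.9 and 395.6 per kb, and each of them overlapped the next in the range of its libraries. Ifih1 (219.7 ± 17.6 per kb) and Ifi205 (38.4 ± 10.1) were below them without overlap. Ifi203 had 340.6 to 395.5 per kb in Txn1 KO libraries and 463.9 to 558.1 in wild type. Aim2 had 419.4 to 457.9 per kb in Txn1 KO libraries and 439.2 to 471.8 in wild type. The level of Ifi203 was thus below that of Aim2 in every Txn1 KO library. In wild type the ranges overlapped, but Ifi203 was above Aim2 within each library. The wild-type values were 463.9, 558.1 and 542.4 per kb for Ifi203 and 439.2, 461.7 and 471.8 for Aim2.

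**Figure D3:**
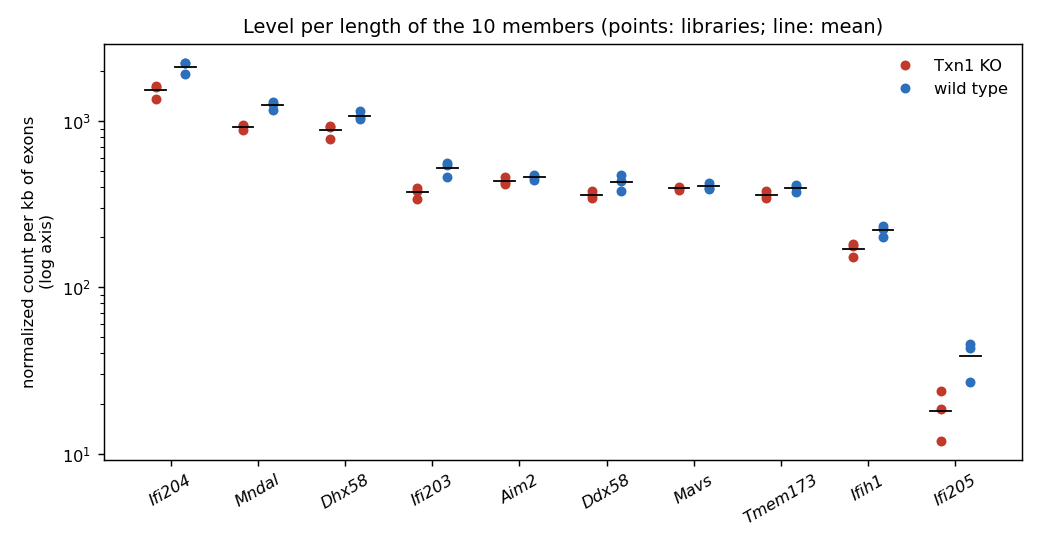
Normalized count per kb of merged exons (vertical log axis) for the 10 members in order of the wild-type mean, with Txn1 KO libraries as red points left of the wild-type libraries in blue and means as lines. Ifi204 is highest and Ifi205 lowest in both groups.

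Ratios within a library compare members without any scaling between libraries. Ifi204 over Aim2 was 3.58 ± 0.266 in Txn1 KO libraries and 4.72 ± 0.232 in wild type (SD, n = 3 each), and Mndal over Aim2 was 2.19 ± 0.0853 in Txn1 KO libraries and 2.82 ± 0.0493 in wild type. Ifih1 over Mavs was 1.05 ± 0.0804 in Txn1 KO libraries and 1.32 ± 0.0989 in wild type. These were among 7 such ratios, of Ifi203, Ifi204, Ifi205 and Mndal over Aim2 and of Ifih1, Ddx58 and Dhx58 over Mavs. The numerators were the 7 members called lower, and the denominators were members not called. In all 7 ratios the groups did not overlap, which that choice largely set in advance, so it is no further support for the calls. Each ratio gave an exact two-sided permutation p of 0.1, also after adjustment over the 7, which is the smallest that 3 against 3 libraries allow.

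Within groups the members varied together. Txn1 KO replicate 3 was the lowest library of its group for 10 of the 10 members, with a median of 0.10 log2 units below the group mean. Wild-type replicate 1 was the lowest of its group for 9 of the 10, with Tmem173 the exception, and a median of 0.11 below. Over all tested genes the medians of these 2 libraries lay within 0.00095 of their group means. Scaling by size factors largely sets this in advance, so it does not set the members apart from other genes. How often other genes were lowest in these 2 libraries was not analysed here. These are the 2 libraries with liver transcripts, 1 in each group. Their part in the result was not tested as such, since each was low within its own group and leaving out both shifts both group means upward. Without Txn1 KO replicate 3 alone 7 members were called lower, with 2820 of 13977 genes called in either direction. Without wild-type replicate 1 alone 7 members were called lower, with 2544 genes called in either direction. Without both, with 2 libraries in each group, the same 7 were called lower, and 2191 genes were called in either direction. The log2 changes were then -0.36 for Ifih1, -0.30 for Ddx58, -0.24 for Dhx58, -0.50 for Ifi203, -0.46 for Ifi204, -1.06 for Ifi205 and -0.45 for Mndal.

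**Figure D4:**
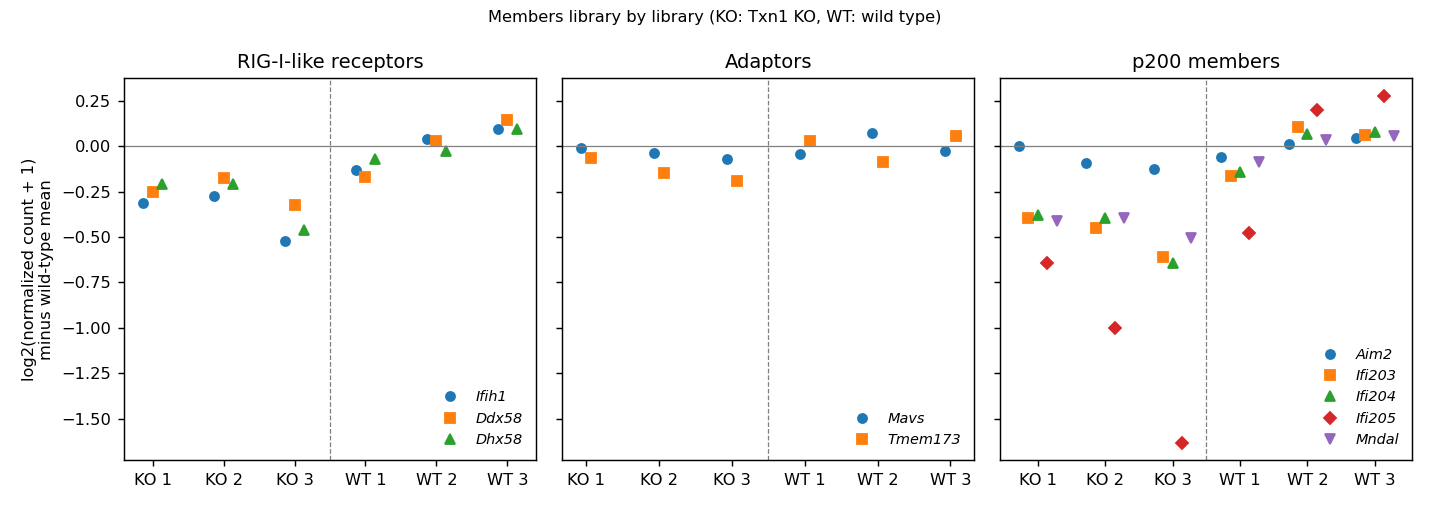
Log2(normalized count + 1) minus the wild-type mean (vertical axis) for each member in each library, Txn1 KO (KO) left and wild type (WT) right. The RIG-I-like receptors and 4 of the 5 p200 members are below 0 in every Txn1 KO library, and KO 3 is the lowest of its group for all members. In KO 3, Tmem173 lies farther below 0 than Mavs and Aim2.

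Along chromosome 1 the fall ran through most of the p200 cluster. Of 13 p200 genes tested, members included, 10 were lower and 0 higher (background 9.97% lower), and the median log2 change was -0.47. Of the 8 that are no members, 6 fell. The gene listed as Mnda, named after its human relative, had 2215 ± 170 normalized counts in Txn1 KO libraries and 3332 ± 384 in wild type (SD, n = 3 each; log2 -0.59, limma adjusted p = 8.42e-06). Pydc3 fell by 0.85 on the log2 scale (limma adjusted p = 7.85e-05), Ifi209 by 0.53, Ifi206 by 0.50, Ifi213 by 0.47 and Ifi207 by 0.27. Ifi214, with 13.8 and 16.96 normalized counts in Txn1 KO and wild type, and the pseudogene Ifi203-ps, with 168.4 and 198.6, did not pass. Close copies make these values uncertain too: 72.8% of the 50-base words of Mnda, 33.8% of those of Ifi209 and 25.6% of those of Ifi206 occur in another gene.

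Few other genes near the cluster were tested. Within 1 Mb of the p200 members there were 11, all on the Aim2 side, with a median log2 change of 0.17. Of these 1 was lower and 2 were higher, shares near those of all tested genes (9.97% lower and 11.5% higher). The nearest of the 11, Dusp23, ends at 172632962, while Aim2 begins at 173350879. Slamf9, a receptor of the SLAM family, fell by 0.33 on the log2 scale (limma adjusted p = 0.00772). Kcnj10, which encodes a potassium channel, rose 3.05-fold (limma adjusted p = 2.39e-05), with 103.6 normalized counts in Txn1 KO libraries and 34.0 in wild type. Pigm, an enzyme of GPI anchor synthesis, rose by 0.17 on the log2 scale (limma adjusted p = 0.0411).

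**Figure D5:**
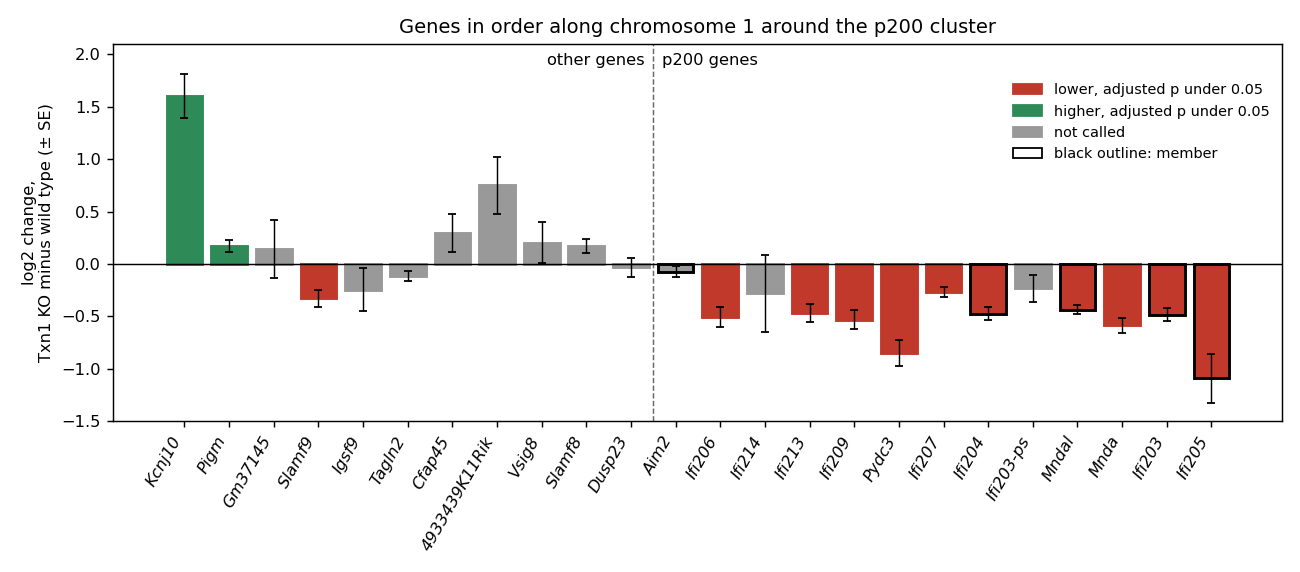
Log2 change (vertical axis, Txn1 KO minus wild type, ± SE) of the 24 tested genes in order along chromosome 1, with the p200 genes right of the dashed line and members outlined in black. Bars are evenly spaced, so distances are not to scale. Of the 13 p200 genes 10 are called lower (red), while the 11 others hold 1 lower, 2 higher (green) and 8 not called (grey).

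The genes whose pattern over the 6 libraries was most like the members were ranked by the root mean square difference of centred log2 values, among 11122 other genes with a mean of at least 50. Among the closest to the mean of Ifih1, Ddx58 and Dhx58 were Znfx1, an RNA helicase of antiviral defence, at 0.030 log2 units, Parp9 (0.033), Slfn5 (0.033) and Dcp2, an mRNA decapping enzyme (0.038). For comparison, the 3 receptors were 0.036 to 0.047 from their own mean. Closest to the mean of the 5 p200 members were Isg15, the ubiquitin-like interferon-induced modifier (0.036), Ifi206 (0.042), Ifi209 (0.043), Irgm1, an immunity-related GTPase (0.049) and Eya4 (0.050). Among the p200 members, Ifi204 and Ifi203 lay at 0.040 and 0.043 from that mean, while Aim2 lay at 0.24 and Ifi205 at 0.38.

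The lists of pathway genes, also chosen with earlier results of these data known, are to be read against all tested genes. Of those, 9.97% were called lower and 11.5% higher. The regulators of RIG-I and MDA5 held 5 genes that fell and 0 that rose among 15 tested (median log2 -0.11). Trim25, the ubiquitin ligase that activates RIG-I, had 6771 ± 59.7 normalized counts in Txn1 KO libraries and 8051 ± 219 in wild type (SD, n = 3 each; log2 -0.25, limma adjusted p = 3.40e-05). Ppp1ca, a phosphatase subunit that acts on both sensors, fell by 0.22 on the log2 scale, Ddx60, a helicase cofactor, by 0.22, and Adar, which edits RNA and so keeps it from MDA5, by 0.17. Zc3hav1, an antiviral zinc finger protein, was the other that fell (log2 -0.13). The ligase Rnf135, which also acts on RIG-I, had a log2 difference of -0.11 and did not pass. Among partners and regulators of MAVS 3 of 21 rose and 2 fell (median 0.04), shares near those of all tested genes, with Rnf5 at -0.18 and Ripk1 at -0.19 lower and Smurf1 at 0.22, Tax1bp1 at 0.10 and Nlrx1 at 0.17 higher.

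In the cGAS-STING list 3 of 22 fell and 0 rose (median log2 -0.08), and the share that fell was near that of all tested genes. Mb21d1, which encodes cGAS, had 290.1 ± 42.9 normalized counts in Txn1 KO libraries and 366.3 ± 23.5 in wild type (SD, n = 3 each; log2 -0.34, limma adjusted p = 0.0257). Slc19a1, a folate carrier reported to import cyclic dinucleotides, fell by 0.47 on the log2 scale (limma adjusted p = 0.00141) and Ddx41, a helicase proposed as a DNA sensor, by 0.22. Among the kinases and transcription factors downstream of MAVS and STING 5 of 13 rose and 1 fell (median 0.06). Irf7, an interferon-induced factor that drives interferon genes, was the one that fell (log2 -0.63), and Ikbkg, the scaffold of the IKK complex (0.25), Tank (0.16), Tbk1, the kinase shared by both pathways (0.13), Irf5 (0.12) and Ikbkb (0.12) rose. Irf3, which TBK1 activates, had a log2 difference of 0.06 and did not pass.

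In the AIM2 inflammasome list 3 of 9 fell and 1 rose (median log2 -0.08). Gbp5 and Gbp2, guanylate-binding proteins that expose bacterial DNA to AIM2, fell by 1.19 and 0.58 on the log2 scale (limma adjusted p = 0.000107 and 0.000196). Gbp5 had 259.8 ± 72.4 normalized counts in Txn1 KO libraries and 586.6 ± 137 in wild type (SD, n = 3 each). Pycard, the adaptor ASC, fell by 0.24, and Ninj1, which ruptures the plasma membrane in lytic cell death, rose by 0.28. Casp1 and Gsdmd each had a log2 difference of -0.08 and did not pass. Among other RNA and DNA sensors 10 of 25 fell and 2 rose (median -0.11). Zbp1, which binds Z-form RNA and DNA, fell by 0.56 on the log2 scale, Oas1a, an oligoadenylate synthetase, by 0.25 and Eif2ak2, the RNA-activated kinase PKR, by 0.24, while Tlr13, an endosomal sensor of bacterial RNA, rose by 0.19 (limma adjusted p = 0.00341). Of the genes of the interferon receptor, the ISGF3 complex and their regulators 4 of 9 tested fell and 0 rose (median -0.13), and Ifnb1 was not analysed here. Usp18, a feedback inhibitor, fell by 0.45 on the log2 scale, Stat2 by 0.24 and Tyk2 by 0.13, and the receptor genes Ifnar1 (-0.06) and Ifnar2 (-0.04) did not pass.

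Markers of other cell types moved with the groups in part. Of 9 stromal markers 5 were lower and 0 higher, against 9.97% lower and 11.5% higher among all tested genes. Col1a1 was among the 5, but its groups overlapped and it did not pass in the authors' deposited results. The summed level of the 9 was 1178 to 2041 normalized counts in Txn1 KO libraries and 2395 to 2699 in wild type. The part of stromal markers in the members' fall was not tested. Of the plasmacytoid dendritic cell markers 2 were measured: Siglech averaged 9.56 normalized counts in Txn1 KO libraries and 16.8 in wild type (not called), and Tcf4 fell by 0.24 on the log2 scale. Of 4 measured neutrophil markers 2 fell (S100a9 and Ngp), while Mpo had a log2 difference of 0.76, with every Txn1 KO library above wild type (limma adjusted p = 0.0732), and S100a8 one of 0.16, neither called. The summed neutrophil level was 244.9 to 285.2 normalized counts in Txn1 KO libraries and 277.1 to 301.0 in wild type. None of 6 liver, 3 conventional dendritic cell and 1 B cell markers tested was called, and markers of T and NK cells and of erythroid cells were not analysed here.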

How the data were processed

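The authors deposited 1 table for 6 libraries. The submitters' processing notes name STAR 2.5.2b, Trimmomatic 0.36, bcl2fastq 2.20 and DESeq2, and the build GRCm38 (mm10); no source used here names the read counter, its strand setting or the annotation. The deposited signal per library is a read number scaled by the authors with a size factor: 100% of values came out whole at a tolerance of 0.01 reads. Log2 fold changes and p-values in the table were computed by the authors and serve as an alternative. A floor of 3 reads came to 2.33 to 4.04 normalized counts, for counting error only.

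The test was limma 3.58.1 (R 4.3.3, trended prior) on log2(normalized count + 1) over 13977 genes with a mean of at least 10, two-sided, adjusted over all of them. This scale understates changes of low genes. Fits on recovered whole reads used edgeR 4.0.16 (2969 genes called), DESeq2 1.42.0 and limma-voom, and the script was tested on simulated data. Positions and exon lengths came from GENCODE M21. Nothing in the labels says whether the replicates are separate animals or cultures. The p-values therefore rest on the spread of these libraries alone, and that spread may be technical. Columns were matched to the control and Txn1 KO titles by name and number; an added "Phi" in the column names is not explained. Members and lists were chosen with earlier results of these data known. Named are all members and, from each list, up to 4 called genes with the smallest p; Zc3hav1, Rnf135, Nlrx1, Tank, Tbk1, Irf3, Casp1, Gsdmd, Ifi206, Ifi207, Ifi214, Ifi203-ps, the receptor genes and the other cell type markers were named after their values were seen. Protein sequences were not used here, and 1 gene that the rule names is not reported here.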

Additional observations from a re-analysis of the deposited data

How the results depend on the processing

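The members' log2 changes kept their direction under all 19 alternatives run for each, and 185 of the 190 values stayed on the same side of the threshold. Without the trended prior, limma called 3 members lower (Ifi203, Ifi204 and Mndal) in place of 7, and 1525 genes in all in place of 3001; Ifih1 (adjusted p = 0.0691), Ddx58 (0.153), Dhx58 (0.103) and Ifi205 (0.0975) were then not called, and the cause was not tested. At an adjusted p under 0.01 the same 7 members passed, and 1833 genes in all. Leaving out each library in turn gave 6 to 7 members lower, 0 to 0 higher and 2088 to 2820 genes in all; the call lost was Ddx58 without wild-type replicate 3. The authors' deposited table, edgeR, DESeq2, limma-voom, TMM scaling, other pseudocounts (0.5 and 5) and other filters each gave 7 members lower and 0 higher. In these the genes called in all ran from 2691 (authors' table) to 3005 (no filter on low values). Without both libraries with liver transcripts 7 were lower in limma and in edgeR (2191 and 2885 genes called in all), and that edgeR fit was chosen after seeing the data. Libraries with the same replicate number did not deviate together (correlations -0.19, 0.015 and -0.25 over 11132 genes). With 3 libraries in each group this cannot settle whether libraries were paired, and a pairing across different numbers was not tested. No library correlated best with its own number: the highest values were 0.32 for Txn1 KO replicate 3 with wild-type replicate 1, the libraries with liver transcripts, 0.23 for replicate 2 with replicate 3 and 0.13 for replicate 1 with replicate 2. With the replicate number as a block, 7 members were lower and 2675 genes were called. Depth limits Ifi205 and Ifi214, the members of the family with the fewest reads.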
